A study of Mus musculus with 2 samples.

Results

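Genes that build and run the mitotic spindle were examined in CD3+CD4+ T cells of the pancreatic lymph nodes (PLN) of BDC mice after treatment with a nondepleting (ND) antibody to CD4. The 57 genes were listed by function and comprise chromatin, checkpoint, kinase, kinetochore, kinesin, spindle, cytokinesis, anaphase and condensin genes. All 57 were among the 19938 genes that the array measured under a single gene symbol, with 1 probe set per gene, the one of highest mean signal where a gene had several. The mice were 8 weeks old and on the NOD background, and carried as transgenes both rearranged T cell receptor (TCR) chains of a CD4+ clone specific for an antigen of pancreatic β cells. The labels number that clone differently from the study's methods, which are followed here in calling the mice BDC. All mice received an antibody, either ND αCD4 (clone YTS177, a rat IgG2a that binds CD4 without depleting the cells) or the isotype control Ab (clone 2A3), and cells were taken 48 hours later. The labels give 1 mg, beside the isotype control Ab, whereas the methods give a range for each antibody that is higher for the control. PLN of 3 mice were pooled before live T cells were sorted, and each condition has 1 array of 1 pool. There is therefore no replicate check on any difference, and no test was run.

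Dividing cells make most mitotic proteins anew in each cycle, and many of the genes are transcribed in G2 and M phase and are nearly silent in resting lymphocytes. Sister chromatids are compacted by condensin, joined to spindle microtubules through the kinetochore on each centromere, and held until the checkpoint releases the anaphase-promoting complex (APC/C). Kinesins and microtubule-binding proteins then move the chromosomes apart, and a contractile ring at the central spindle divides the cell. In T cells, antigen recognition through the TCR drives resting cells into this cycle, and Ki67 protein is the usual marker of cells that have entered it.

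Signals are on a log2 scale, and a log2 ratio is ND αCD4 minus isotype control Ab. After ND αCD4, 56 of the 57 mitotic genes had a log2 ratio below 0 and 1 had a ratio above 0, whereas 53% of all measured genes had a log2 ratio below 0. The median log2 ratio of the 57 was -0.61, with quartiles of -0.84 and -0.38, beside -0.01 for all measured genes. By measured values, 30 of 57 were at least 1.5-fold lower, beside 0.757% of all measured genes, and none was at least 1.5-fold higher. As the RNA is from a pool of cells, fewer dividing cells and less RNA per cell cannot be told apart in any of these values.

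A gene was taken as above background in an array when it exceeded the 95th percentile of the olfactory and vomeronasal receptor probe sets there, which was 7.64 for the isotype control Ab array and 7.56 for the ND αCD4 array. By this rule 35 of the 57 were above background in both arrays, 13 in the isotype control Ab array alone, none in the ND αCD4 array alone, and 9 in neither. Of the 35, 14 were at least 1.5-fold lower, with a median log2 ratio of -0.53, beside 0.86% of all genes above background in both arrays, a filter that removes the genes that left the detected range. Of the 13, which passed through the isotype control Ab array and so had to be lower, 11 were past 1.5-fold by measured values, beside 19.2% of all genes of this class. Of the 9, 5 were past it by measured values, beside 0.268% of all genes below background in both arrays. Counting the 48 above background in at least 1 array gives 25 lower, beside 1.01% of such genes for lower and 0.212% for higher. The median of all genes was -0.01 among those above background in both arrays and -0.02 among those in neither, where the mitotic genes were at -0.53 and -0.61. In the class detected in the isotype control Ab array alone it was -0.29 for all genes and -0.84 for the 13, and the filter itself puts that class below 0. Ratios and group medians below use measured values, so for genes below background they are not exact.

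**Figure D1:**
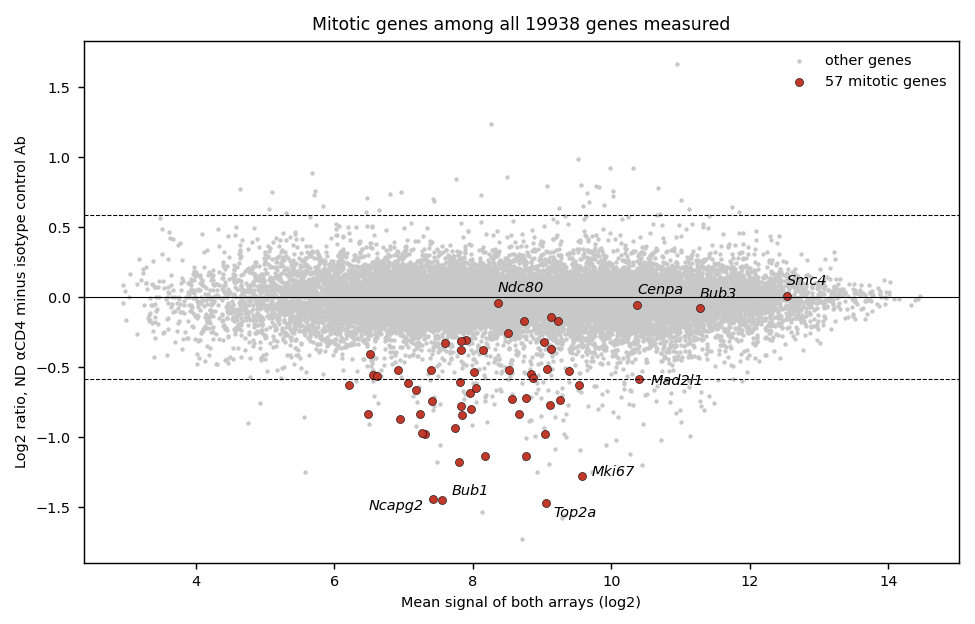
Log2 ratio (ND αCD4 minus isotype control Ab) against the mean log2 signal of both arrays, 1 point per gene, with the 57 mitotic genes in red and the other measured genes in gray. Dashed lines mark 1.5-fold; 30 red points lie below the lower line, none lies above the upper line, and *Smc4*, *Cenpa*, *Bub3* and *Ndc80* lie close to 0.

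Of the 13222 genes above background in at least 1 array, 48 were mitotic genes. Ordered by log2 ratio of measured values, the mitotic genes were 22 of the 100 lowest and 36 of the 500 lowest. They made up 18.8% of the 133 such genes that were at least 1.5-fold lower. These counts include genes that passed through the isotype control Ab array alone and so had to be lower, 11 of the 25 past 1.5-fold. By measured values 7 mitotic genes were at least 2-fold lower, beside 0.189% of the 13222. Of these, 4 were above background in both arrays (*Top2a*, *Mki67*, *Kif11* and *Nusap1*), and for the other 3 (*Bub1*, *Kif15* and *Ncapg2*) the bounds given with each gene fall short of 2-fold. The log2 ratios of the 57 had an SD of 0.35, so the genes were far from uniform. Across the 57 genes, which share 2 arrays and are not independent, the log2 ratio was weakly related to the mean signal (Pearson r = 0.31, Spearman rho = 0.27). Close to the 1.5-fold limit (0.58 on the log2 scale), *Birc5* (-0.60), *Anln* (-0.61), *Cenpp* (-0.63) and *Ncapd2* (-0.63) were just inside, while *Mad2l1* (-0.58) and *Ube2c* (-0.58) were just outside. The 1.5-fold count therefore draws a line through a continuous range.

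*Top2a* and *Mki67* were the lowest of the 57 among those above background in both arrays. *Top2a*, the DNA topoisomerase that untangles sister chromatids, went from 9.79 in the isotype control Ab array to 8.32 in the ND αCD4 array, 2.77-fold lower and the 5th lowest log2 ratio of 13222 genes. A further probe set that carries the *Top2a* symbol read 4.25 and 4.22, below background, and was the only second probe set among the 57. *Mki67*, which encodes the Ki67 protein that coats mitotic chromosomes, went from 10.22 to 8.94 and was 2.42-fold lower. Both genes were clear of background in both arrays, so neither value is a bound.

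Promoters of these genes are shown because mitotic genes are known to share short control elements near their start. The TTTGAA hexamer, known as the cell cycle genes homology region (CHR), is bound by the MuvB complex, and CCAAT boxes are bound by NF-Y. The promoters below are from RefSeq (GRCm38.p6), each 5′ to 3′ on the gene's strand from 150 bases before the start to 50 bases after it. Capitals mark TTTGAA, its variant TTCGAA and CCAAT on either strand. The first 4 belong to genes with low log2 ratios by measured values, of which *Bub1* and *Ncapg2* were below background after ND αCD4, and the last 2 to genes with little difference.
Top2a, chr11:99024140-99024339, minus strand: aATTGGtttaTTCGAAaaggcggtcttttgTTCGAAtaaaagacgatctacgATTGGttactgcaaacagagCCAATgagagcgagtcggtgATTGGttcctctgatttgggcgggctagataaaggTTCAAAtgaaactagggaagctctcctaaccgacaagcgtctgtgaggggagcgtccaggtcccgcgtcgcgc
Bub1, chr2:127831810-127832009, minus strand: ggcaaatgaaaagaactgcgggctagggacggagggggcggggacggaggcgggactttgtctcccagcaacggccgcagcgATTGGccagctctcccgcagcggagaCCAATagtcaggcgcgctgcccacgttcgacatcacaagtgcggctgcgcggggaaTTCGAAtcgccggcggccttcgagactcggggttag
Ncapg2, chr12:116405286-116405485, plus strand: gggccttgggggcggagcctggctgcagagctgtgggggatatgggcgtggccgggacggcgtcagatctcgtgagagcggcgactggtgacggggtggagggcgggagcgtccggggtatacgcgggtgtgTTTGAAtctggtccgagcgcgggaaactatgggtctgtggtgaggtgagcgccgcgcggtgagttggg
Mki67, chr7:135716330-135716529, minus strand: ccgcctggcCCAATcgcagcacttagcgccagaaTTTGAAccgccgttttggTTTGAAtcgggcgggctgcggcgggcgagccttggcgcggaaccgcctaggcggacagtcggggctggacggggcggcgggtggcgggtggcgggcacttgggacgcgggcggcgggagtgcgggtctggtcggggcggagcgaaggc
Bub3, chr7:131560220-131560419, plus strand: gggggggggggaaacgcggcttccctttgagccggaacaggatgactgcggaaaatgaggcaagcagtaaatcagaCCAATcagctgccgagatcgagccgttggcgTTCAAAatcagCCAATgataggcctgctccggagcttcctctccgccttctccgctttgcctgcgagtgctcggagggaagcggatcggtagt
Ndc80, chr17:71526808-71527007, minus strand: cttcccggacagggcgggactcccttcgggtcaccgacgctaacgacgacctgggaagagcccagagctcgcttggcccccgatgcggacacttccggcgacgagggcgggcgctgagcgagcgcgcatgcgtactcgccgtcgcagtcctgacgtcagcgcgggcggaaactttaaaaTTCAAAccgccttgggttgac

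Of the 57 genes, 50 had a promoter in the RefSeq table, with windows of 250 bases before to 50 after each start. TTTGAA or its reverse complement was present in 35 of these 50 (70%), beside 20.2% of all 27025 genes with a promoter and 14.1% of the 10511 detected genes with a promoter. Within 40 bases of the start it was present in 30 of 50 (60%), beside 4.84% of all genes. CCAAT on either strand was present in 33 of 50 (66%), beside 41.1% of all genes, and both motifs in 27 of 50 (54%), beside 8.97%. The TTCGAA variant reads the same on both strands and differs from TTTGAA at 1 base, so a site counts under only 1 of them. The windows held the variant in 8% of the 50 and in 1.80% of all genes. TTTGAA and CCAAT can share an end base, which occurred once, in *Cdca8*.

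Within the 50, genes with and without the hexamer had similar log2 ratios, and a difference was not tested. The 35 genes with TTTGAA had a median log2 ratio of -0.61 (-1.47 to -0.04) and the 15 without it a median of -0.63 (-1.45 to -0.17). TTTGAA was present in 16 of the 22 detected genes past 1.5-fold and in 15 of the 20 detected genes short of it. The TTCGAA variant was present in 4 of the 22 and 0 of the 20, and either form in 18 and 15. Some of the 15 genes without TTTGAA, such as *Bub1*, hold the variant, so that group is not free of both forms. In the sequences above, positions are counted from the start, with 1 as the first base of the transcript and -1 as the base before it. *Ncapg2* has TTTGAA beginning at -18, and *Bub3*, which barely differed, has its reverse complement at -43 in the window shown. The other *Bub3* window, counted from another start, holds it at -167. *Ndc80* also holds it, at 30, although its signal was almost the same in both arrays. *Bub1* holds the variant and not TTTGAA, at 15, and *Mki67* has a pair of TTTGAA copies farther upstream, at -116 and -98. These are matches of letters in a window and say nothing of binding in these cells.

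The spindle assembly checkpoint, which holds anaphase until every kinetochore is attached, was uneven. *Bub1*, a kinase that recruits the other checkpoint proteins to kinetochores, went from 8.28 to 6.83 and was at least 1.64-fold lower, since it was below background after ND αCD4. *Bub1b*, which encodes the APC/C inhibitor BubR1, went from 8.31 to 7.62 and was 1.60-fold lower. *Mad2l1*, which encodes the Mad2 inhibitor, went from 10.70 to 10.11 at a log2 ratio of -0.58. These 3 genes were lower, whereas *Bub3*, the adaptor that carries Bub1 and BubR1 and also binds spliceosome components, read 11.32 and 11.24. *Ttk*, the kinase at the head of the checkpoint, was below background in both arrays (7.18 and 6.66).

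Neither *Plk1* nor *Aurka* reached 1.5-fold. The kinase *Plk1*, which acts from mitotic entry to cytokinesis, went from 9.33 to 8.81 (1.43-fold lower). *Aurka*, the kinase of the spindle poles, read 8.83 and 8.66, a log2 ratio of -0.17. In contrast, *Aurkb*, the kinase of the chromosomal passenger complex that corrects faulty attachments, went from 9.52 to 8.55 and was 1.96-fold lower. The Aurora kinases thus had unlike log2 ratios, -0.17 for *Aurka* and -0.97 for *Aurkb*.

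The other passenger subunits followed *Aurkb* in part. *Cdca8*, which encodes borealin, went from 8.37 to 7.72 (1.57-fold lower). *Birc5*, which encodes survivin, went from 8.12 to 7.51 and was at least 1.47-fold lower, being below background after ND αCD4. *Incenp*, the scaffold that activates the kinase, read 9.20 and 9.06. With *Incenp* at a log2 ratio of -0.14, the complex held 3 subunits past 1.5-fold by measured values and 1 near 0.

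Among the genes of the centromere and inner kinetochore, 5 of 7 were past 1.5-fold by measured values and *Cenpa* was the exception near 0. *Cenpa*, the histone H3 variant that marks centromeres, read 10.40 and 10.35, a log2 ratio of -0.05. *Cenpn*, which reads the CENP-A nucleosome, went from 9.51 to 8.74 (1.70-fold lower). *Cenpm*, a subunit of the same constitutive centromere network, went from 9.63 to 8.90 (1.66-fold lower). These subunits had lower log2 ratios than *Cenpa*, while others of the network were near 0, such as *Cenpo*, *Cenpc1* (-0.09) and *Cenpt* (-0.09). *Cenpk* was barely above background in the isotype control Ab array (7.65 and 6.81), which gives a bound of at least 1.06-fold lower. *Cenph* (7.38 and 6.52), *Cenpi* (6.83 and 6.27) and *Cenpp* (6.53 and 5.90) were below background in both arrays, and no fold is given for them.

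The outer kinetochore, which grips microtubules, had a median log2 ratio of -0.46 over its 8 genes. In the NDC80 complex, the main microtubule coupler, *Spc25* went from 7.78 to 7.03 (at least 1.16-fold lower) and *Nuf2* from 7.65 to 7.13 (at least 1.06-fold lower). *Spc24* read 8.06 and 7.76, and *Ndc80* 8.38 and 8.34. The complex is an obligate tetramer, yet the log2 ratios of its genes ran from -0.74 to -0.04 by measured values, and from -0.30 to -0.04 when floored at background. *Ska3*, of the SKA complex that backs up NDC80 on microtubules, went from 7.80 to 6.83 (at least 1.18-fold lower), and *Ska1* was below background (6.71 and 6.31). *Cenpf*, a large kinetochore and nuclear envelope protein, read 7.76 and 7.44. *Cenpe*, the kinetochore kinesin that aligns chromosomes, was below background in both arrays (7.51 and 6.84).

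**Figure D2:**
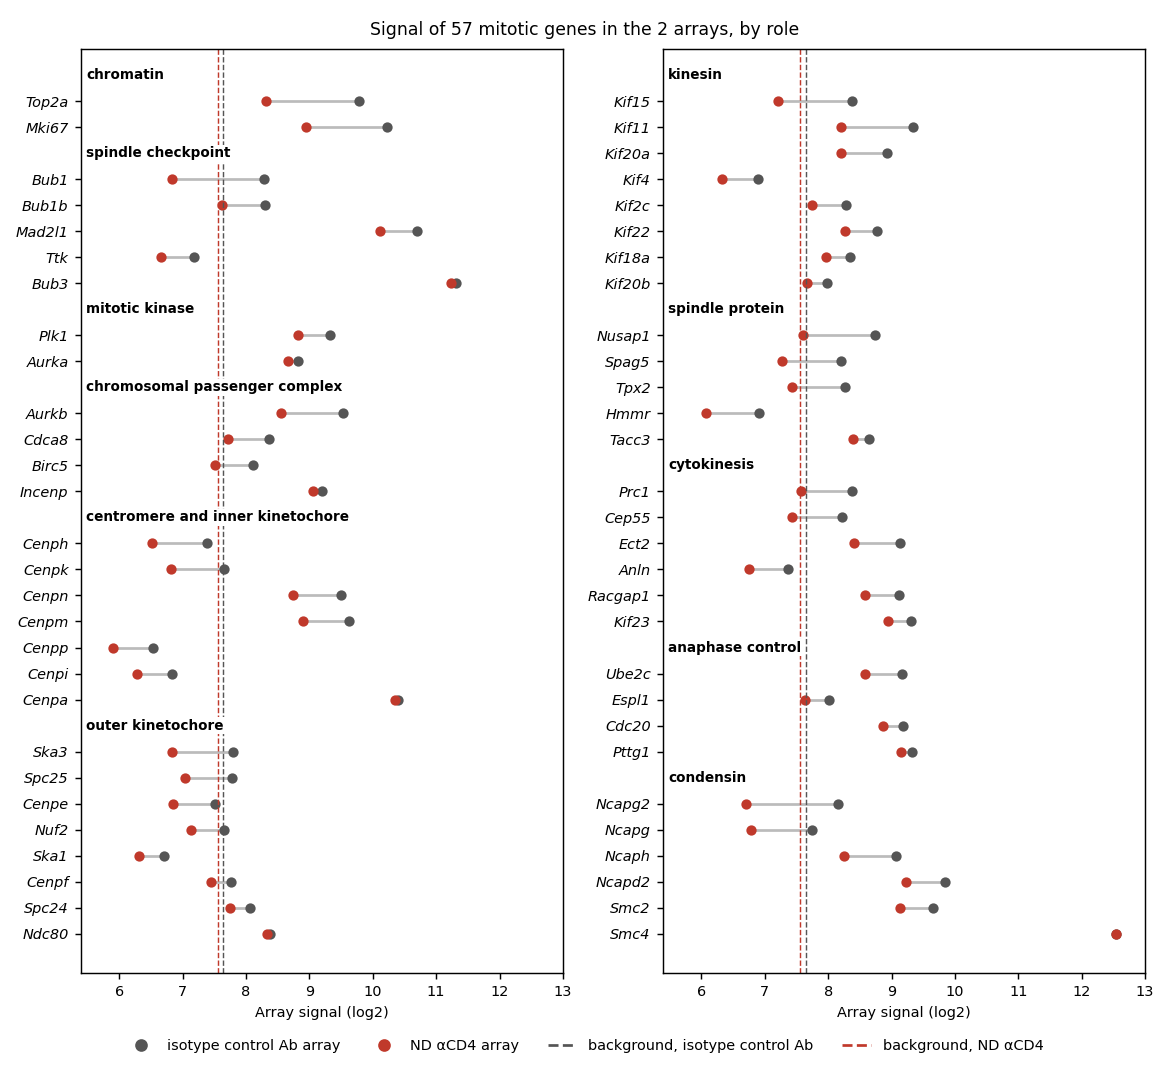
Log2 signal of the 57 genes by role with gray points for isotype control Ab and red points for ND αCD4, connected for each gene, and dashed lines at the background of the array of that color. The red point lies left of the gray one for 56 genes and covers it for *Smc4*, and 9 genes lie below background in both arrays. Probes differ between genes, so only the points of 1 gene can be compared.

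All 8 kinesins had log2 ratios below 0, from -1.18 to -0.31. *Kif15*, a spindle motor that backs up Eg5, went from 8.38 to 7.21 and was at least 1.77-fold lower, the highest bound of the 13 genes that left the detected range. *Kif11*, which encodes Eg5, the motor that pushes spindle poles apart, went from 9.34 to 8.21 and was 2.19-fold lower. *Kif20a*, which carries passenger proteins to the central spindle, went from 8.93 to 8.21 (1.66-fold lower). The motors that push the poles apart, *Kif11* and *Kif15*, thus had the lowest log2 ratios of the group. *Kif2c*, a microtubule depolymerase, read 8.27 and 7.74, and *Kif22*, a motor on chromosome arms, 8.78 and 8.26. *Kif18a*, which dampens chromosome movements at the metaphase plate, read 8.34 and 7.96, and *Kif20b*, a motor of cytokinesis, 7.98 and 7.67. *Kif4*, a chromosome and midzone motor, was below background in both arrays (6.89 and 6.33).

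Spindle proteins had the lowest group median after the chromatin pair, at -0.84 over 5 genes. *Nusap1*, which bundles microtubules at chromosomes, went from 8.74 to 7.61 and was 2.20-fold lower, just above background after ND αCD4. *Spag5*, which encodes astrin, went from 8.21 to 7.27 (at least 1.56-fold lower). *Tpx2*, which activates Aurora A on the spindle, went from 8.27 to 7.43 (at least 1.63-fold lower). *Aurka* and its activator thus had unlike ratios, -0.17 and -0.84. *Tacc3*, which cross-links spindle fibers, read 8.64 and 8.38, and *Hmmr*, a spindle pole protein and hyaluronan receptor, was below background (6.91 and 6.07).

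Cytokinesis genes had a median log2 ratio of -0.67 over 6 genes. *Prc1*, which bundles the antiparallel microtubules of the midzone, went from 8.37 to 7.57 (1.74-fold lower) and was just above background after ND αCD4. *Ect2*, the exchange factor that switches on RhoA at the equator, went from 9.13 to 8.41 (1.65-fold lower). *Cep55*, which recruits the abscission machinery to the midbody, went from 8.21 to 7.44 (at least 1.57-fold lower). These 3 genes act from the onset of furrowing to abscission, and all were past 1.5-fold. The centralspindlin pair was less altered, with *Racgap1* at 9.12 and 8.57 (1.46-fold lower) and *Kif23* at 9.31 and 8.94 (1.29-fold lower). *Anln*, which encodes the ring scaffold anillin, was below background in both arrays (7.36 and 6.75).

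None of the 4 anaphase control genes reached 1.5-fold, with a median log2 ratio of -0.35. *Ube2c*, the ubiquitin-conjugating enzyme of the APC/C, went from 9.16 to 8.58 (1.49-fold lower). *Cdc20*, the APC/C activator that the checkpoint restrains, read 9.18 and 8.86. *Espl1*, which encodes separase, the protease that cuts cohesin, read 8.02 and 7.64, and its inhibitor *Pttg1* (securin) read 9.31 and 9.14. All 4 ratios were below 0, and *Pttg1* was the closest to it, at -0.17.

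Condensin, the ring complex that compacts chromosomes, spanned log2 ratios from -1.44 to 0.01 by measured values. *Ncapg2*, a subunit of condensin II, went from 8.15 to 6.71 and was at least 1.5-fold lower (log2 ratio of -1.44 by measured values). *Ncaph*, the kleisin of condensin I, went from 9.08 to 8.24 (1.78-fold lower). *Ncapd2*, also of condensin I, went from 9.85 to 9.22 (1.55-fold lower). All 3 subunits particular to condensin I were past 1.5-fold by measured values, the third being *Ncapg* (7.75 and 6.78, a bound of at least 1.14-fold). The core ATPases, which both condensins share, differed from each other, as *Smc2* went from 9.66 to 9.13 (1.44-fold lower) and *Smc4* read 12.53 and 12.54. *Smc4* was the only one of the 57 with a log2 ratio above 0, at 0.01.

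Partners from the same complexes that are not among the 57 were also measured, and none of those plotted with the complexes was 1.5-fold lower. Of condensin II, *Ncapd3* read 11.02 and 11.02 and *Ncaph2* 10.32 and 10.34, beside *Ncapg2* at least 1.5-fold lower. *Cenpl*, the partner of *Cenpn*, read 7.63 in both arrays. That is below background in the isotype control Ab array and just above it after ND αCD4, so its ratio is not exact. *Mad1l1*, which holds Mad2 at kinetochores, had a log2 ratio of 0.07. *Ska2*, of the SKA complex, had a log2 ratio of -0.24. In the CENP-O group, *Cenpq* was at 0.07 and *Cenpo* at -0.07, while *Cenpp* was at -0.63 below background. The spread within a complex, the highest minus the lowest log2 ratio by measured values, was 1.46 for condensin II and 0.34 for the subunits particular to condensin I. With signals floored at background it was 0.61 and 0.65, so no contrast between the condensins held. For the checkpoint proteins it was 1.51 and, floored, 0.78. In complexes with all plotted subunits above background in both arrays it was 0.53 for the condensin core, 0.18 for the cohesin core and 0.18 for centralspindlin.

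**Figure D3:**
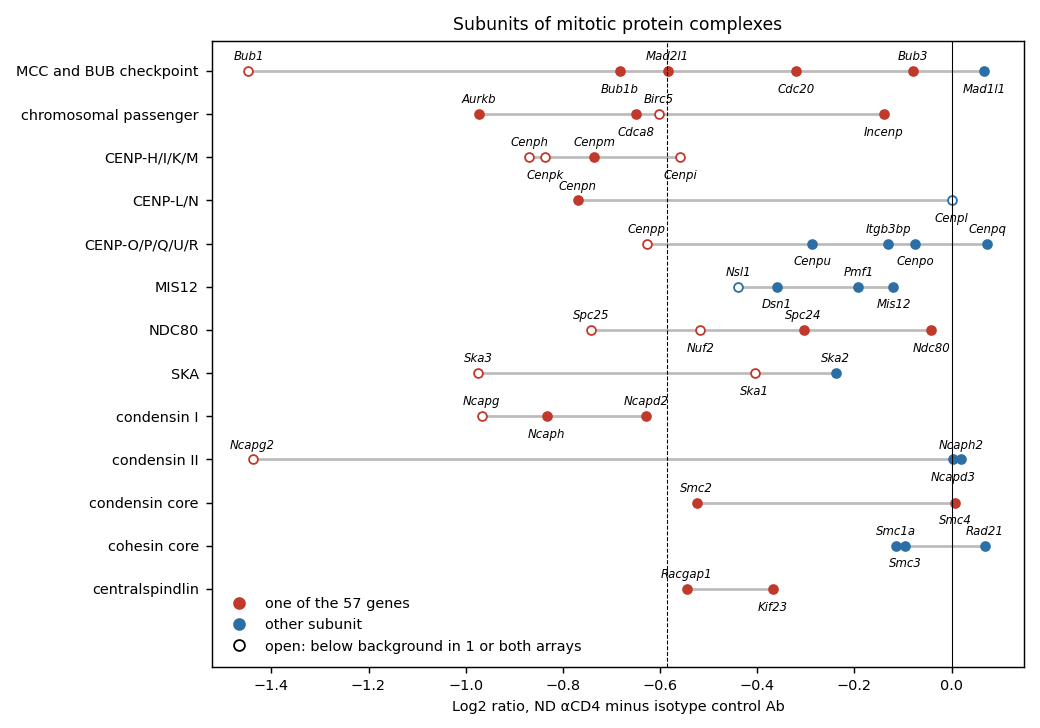
Log2 ratio (ND αCD4 minus isotype control Ab) of each measured subunit of 13 mitotic complexes or subcomplexes, with genes of the list in red, other subunits in blue, open points for genes below background in 1 or both arrays, a gray line over the range of each complex, a solid line at 0 and a dashed line at 1.5-fold lower. The lowest points of the checkpoint, CENP-H/I/K/M, CENP-O/P/Q/U/R, MIS12, NDC80, SKA and both condensin rows are open, so their distance from 0 is not exact. In contrast, *Aurkb* and *Incenp* (-0.97 and -0.14) or *Smc2* and *Smc4* (-0.52 and 0.01) are filled.

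Further mitotic genes were listed by function outside the 57. Of 47 measured genes known to be cell cycle regulated, 43 had a log2 ratio below 0, and the median was -0.46. By measured values 17 of the 47 were at least 1.5-fold lower, and none of the 34 detected genes was at least 1.5-fold higher. Among them *Cks2*, a cofactor of cyclin-dependent kinases, went from 9.62 to 8.77 (1.81-fold lower), and *Knl1*, the kinetochore scaffold for Bub proteins, from 8.69 to 7.93 (1.70-fold lower). Machinery known to be present throughout the cycle or to act outside mitosis too was near 0. No gene was 1.5-fold lower in the lists of APC/C (15 genes), cohesin and its regulators (13), γ-tubulin, augmin and spindle poles (23), or ESCRT and abscission (16). Their medians were -0.04, 0.00, -0.05 and 0.00. The cohesin list also holds *Ncapd3* and *Ncaph2* of condensin II. Other cohesin regulators were listed with the cell cycle-regulated genes. Among these, *Cdca5* (8.62 and 7.92) was 1.63-fold lower, *Sgo2a* (8.30 and 7.69) 1.53-fold lower and *Sgo1* (8.30 and 7.89) 1.32-fold lower. *Esco2* was below background in both arrays (7.64 and 6.72). The values of the cohesin list thus depend on which regulators were placed in it. The 15 genes listed under the MIS12, CENP-T and RZZ groups, with others such as *Mad1l1* and *Ska2*, had a median of -0.12. Among them *Zwilch*, which helps recruit checkpoint proteins, was at least 1.58-fold lower (8.23 and 7.53). The RZZ subunit *Kntc1* was instead listed with the cell cycle-regulated genes, and was at least 1.20-fold lower (7.83 and 7.03). Genes of DNA replication licensing and forks, which act before mitosis, had a median of -0.48 over 52 genes, 20 of them at least 1.5-fold lower. With 1 array per condition, whether the mitotic median of -0.61 differs from it was not tested.

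**Figure D4:**
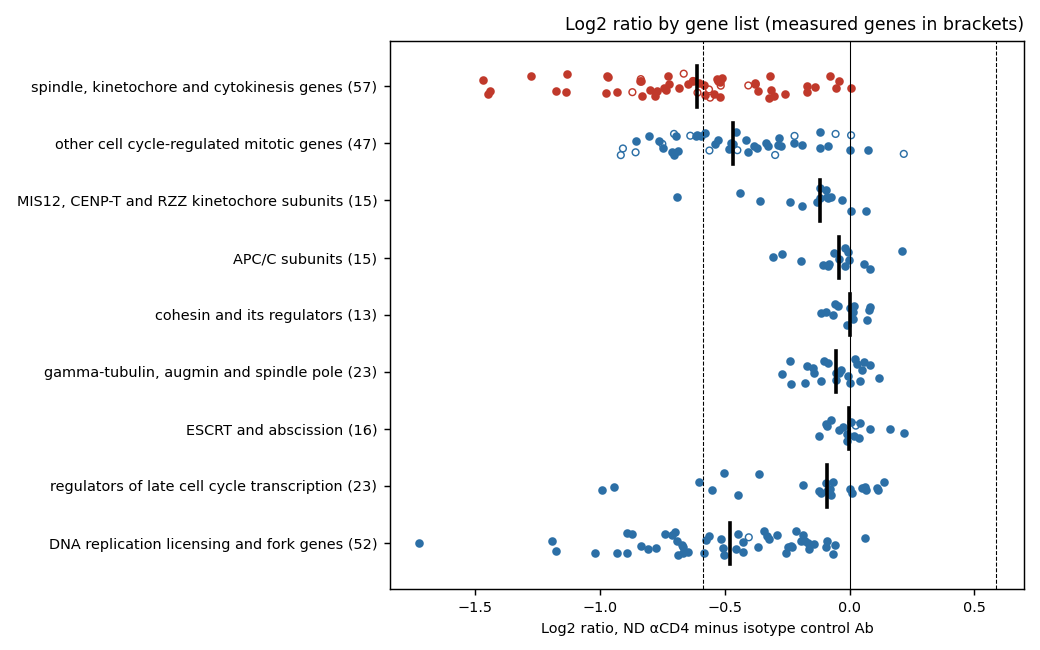
Log2 ratio (ND αCD4 minus isotype control Ab) of each measured gene by list, 1 point per gene, filled when above background in at least 1 array and open otherwise, with the list median over all measured genes as a black bar. The 57 genes have their median at -0.61, other cell cycle-regulated mitotic genes at -0.46 and DNA replication genes at -0.48, and the APC/C, cohesin, spindle pole and ESCRT lists lie around 0. Dashed lines mark 1.5-fold, and points are scattered vertically for visibility.

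The hexamer of the promoters above was also counted in the other lists. It was present in 21 of 40 promoters (52.5%) of the other cell cycle-regulated mitotic genes and 7 of 18 (38.9%) of regulators of late cell cycle transcription. For spindle pole genes it was 4 of 16 (25%), for the cohesin list 2 of 9 (22.2%) and for DNA replication genes 7 of 42 (16.7%). For ESCRT genes it was 2 of 12 (16.7%), for the MIS12, CENP-T and RZZ list 2 of 13 (15.4%) and for APC/C genes 2 of 14 (14.3%). In the replication genes CCAAT was present in 59.5% of their promoters.

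Regulators of late cell cycle transcription were mixed, with a median log2 ratio of -0.09 over 23 genes and 3 past 1.5-fold. *E2f1*, an activator of genes for entry into S phase, went from 9.39 to 8.40 (1.99-fold lower). *E2f8*, a repressor that closes that program, went from 8.23 to 7.29 (at least 1.59-fold lower). *Mybl2*, which encodes B-Myb, the partner of MuvB in G2, went from 9.31 to 8.71 (1.52-fold lower). *Foxm1*, the factor that follows B-Myb at mitotic promoters, was short of 1.5-fold at 8.41 and 7.91 (1.42-fold lower). The MuvB subunits *Lin9* and *Lin54* had log2 ratios of -0.12 and 0.11, and the DREAM pocket protein *Rbl2* one of 0.06. Of the other E2F genes, *E2f3* was at -0.55 and *E2f2* at 0.14, so the family did not move as one.

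T cell markers, which CD4+ and CD8+ cells share and which so check only the CD3+ part of the sort, were alike in both arrays. *Cd3e* read 13.76 and 13.78, and all 7 measured T cell markers were above background with log2 ratios from -0.09 to 0.06. The 3 CD4 T cell markers were also above background in both arrays, with *Cd4* at 13.38 and 13.48. Their log2 ratios ran from 0.09 to 0.22, and their summed linear signal was 1.085 times that of the isotype control Ab array. CD8 T cell markers were higher after ND αCD4, with *Cd8a* at 9.67 and 10.39 and *Cd8b1* at 11.38 and 11.83. Their summed linear signal was 1.43 times that of the isotype control Ab array, and its part in the mitotic values was not tested. Regulatory T cell markers, all 4 above background in both arrays, summed to 0.868 times. Of these, *Il2ra*, which encodes CD25 and is also raised on activated T cells, read 11.42 and 10.82, *Ikzf2* 11.88 and 11.60, *Foxp3* 10.46 and 10.39, and *Ctla4* 11.14 and 11.34. Immature T cell markers were above background for 3 of 5 genes in each array. Their log2 ratios ran from 0.07 to 1.24, with a summed signal of 1.33 times. Of these, *Dntt* read 7.65 and 8.88 and *Cd1d1* 9.37 and 9.60, while *Rag1* and *Rag2* were below background. Of the markers of B cells, 6 of 7 were above background in the isotype control Ab array and 7 of 7 in the ND αCD4 array, with a summed signal of 1.08 times. Of those of germinal center B cells and plasma cells, 5 of 6 were above background in both arrays, with 0.981 times, and *Jchain* was below background. Myeloid markers were above background for 1 of 9 and 3 of 9 genes, with 1.06 times. Natural killer cell markers were above background for 1 of 5 and 2 of 5 genes, with a summed signal of 0.880 times. That sum is mostly *Eomes* (11.72 and 11.41), which some T cells also express, while the other 4 markers had ratios above 0, with *Klrd1* at 7.34 and 8.19 and a list median of 0.10. The sums of dendritic cell, red blood cell and stromal markers lay between 1.01 and 1.03 times. The part of these markers in the mitotic values was not tested either.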

How the data were processed

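RNA of sorted CD3+CD4+ PLN T cells, pooled from 3 BDC mice per condition, was hybridized to Affymetrix mouse gene ST arrays, 1 per antibody. The authors deposited log2 signals per probe set, made with Affymetrix Expression Console according to the submitters' processing notes. The sources used here do not give the background correction or normalization. The log2 scale was inferred from the values, which run from 2.52 to 14.7 with medians of 8.15 and 8.15. Probe set identifiers are those of an earlier array version than the methods name.

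Of 35557 probe sets, 21789 had 1 symbol, 1621 several and 12147 none, and only the first were used (19938 genes). Symbols were checked against RefSeq (GRCm38.p6; 21698 probe sets matched, 0 changed). A probe set with several symbols has no value here. Background was the 95th percentile of 1210 receptor probe sets. Where a gene was below background in 1 array, the fold was computed against that background as a bound. Promoter letters were searched on both strands. Arithmetic was tested on simulated data. Python 3.11.15, numpy 2.4.6, pandas 2.3.3, scipy 1.17.1, statsmodels 0.14.6 and matplotlib 3.10.9 were used.

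The genes and lists were chosen with earlier results of these data known. All 57 genes are named. Of each other list, up to 3 detected genes with the lowest and 2 with the highest log2 ratio could be named, of each marker list up to 2 genes of highest mean signal, and any regulator of late cell cycle transcription. The complexes, with *Ncapd3*, *Ncaph2*, *Ska2*, *Cenpo*, *Cenpc1* and *Cenpt*, were picked after their values were seen. So were the cohesin regulators *Cdca5*, *Sgo1*, *Sgo2a* and *Esco2* and the markers *Il2ra*, *Foxp3*, *Rag1*, *Rag2* and *Jchain*. Alternatives were 3 other scalings (median centring, lowess with a fraction of 0.3 and 3 iterations, quantile), a floor at background, the mean of probe sets, other detection rules and a 2-fold rule. A log transform planned in case of linear values did not apply.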

Additional observations from a re-analysis of the deposited data

How the results depend on the processing

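Median centring, lowess and quantile normalization gave 24, 25 and 24 of the 57 genes at least 1.5-fold lower among those detected, beside 25 as deposited, and a floor at background gave 20. *Birc5* fell short of 1.5-fold under centring, quantile normalization and the floor, and *Cenpk*, *Spc25*, *Ska3* and *Ncapg* under the floor. The count dropped to 14 when detection in both arrays was required and to 11 with background at the 99th percentile, which left 26 of 48 genes detected, and it was 7 at 2-fold. Each of these rules admits fewer genes by construction. Without a filter it was 30. The median log2 ratio of the detected genes lay between -0.61 and -0.53 under the 8 alternatives run for it, beside -0.62. The floor moved 21 single log2 ratios, the 3 scalings moved none, and the mean of probe sets moved *Top2a* alone, to -0.75, since its second probe set was below background. Moves were judged against 0.0926, the SD between probe sets of a gene (550 genes), which does not cover differences between mice. The floor, added for complexes after seeing the data, brought the spread of log2 ratios within condensin II from 1.46 to 0.61 and within condensin I from 0.34 to 0.65. In promoters, TTTGAA was present in 70% of genes in the shorter window too, and CCAAT in 64%. No paired analysis was possible because each condition has 1 array.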
